A study of Homo sapiens with 4 samples.

Results

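The basal and stress keratin genes KRT5, KRT6A, KRT6B, KRT6C, KRT14, KRT15, KRT16 and KRT17, were followed through the RNA of HMLE cells with and without depletion of the splicing regulator hnRNP F. They were chosen by symbol, as the keratins of the basal layer and of the stressed or wounded epidermis, and all 8 were found among the 60302 genes of the table, each on 1 row. HMLE is an immortalised line of human mammary epithelial cells. In 2 samples the cells stably expressed a short hairpin RNA (shRNA) against hnRNPF from a lentiviral vector, and in the other 2 they expressed a non-specific shRNA from the same kind of vector (control). All 4 therefore carried a lentiviral hairpin, and untransduced cells are not analysed here. The series describes the samples as separate cell lines, but does not say whether lines of a group carried different hairpins or came from separate infections. A p-value here therefore reflects only how far these 4 samples spread. PolyA-selected RNA was sequenced, and each gene has 1 FPKM value per sample (fragments scaled to transcript length and to the mapped total of the sample), a level per length.

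Keratins are the intermediate filament proteins of epithelial cells, and a filament is built from pairs of 1 acidic type I and 1 basic type II chain. KRT5 (type II) and KRT14 (type I) form the network of basal cells in stratified and glandular epithelia, including the basal layer of the mammary gland, and KRT15 is a further type I keratin of basal cells. KRT6A, KRT6B and KRT6C (type II) and their partners KRT16 and KRT17 (type I) are the keratins that epidermis makes after wounding, in inflammation and in hyperproliferation, and that many epithelial cells make in culture. The type II genes lie in 1 cluster and the type I genes in another. On GRCh37, the build of the deposited loci, the cluster on chromosome 12 holds KRT6B (52840435 to 52845910), KRT6C (52862300 to 52867569), KRT6A (52880958 to 52887041) and KRT5 (52908359 to 52914471). The cluster on chromosome 17 holds KRT15 (39669995 to 39678781), KRT14 (39738531 to 39743173), KRT16 (39766030 to 39772151) and KRT17 (39775689 to 39781094). All 8 are on the minus strand, and no other gene of the table overlaps any of them.

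The KRT6 genes are near-identical copies, which bears on how reads can be divided among them. In the coding sequences of the GENCODE 29 transcripts, KRT6A matched KRT6B at 97.5% and KRT6C at 97.9% of aligned bases, and KRT6B matched KRT6C at 98.5%. KRT5 matched KRT6A at 83.2%. Of the stretches of 100 bases in each transcript, 18.2% of those in KRT6A, 24.6% in KRT6B and 31.7% in KRT6C also occurred, letter for letter, in a transcript of another gene. The share was 1.44% for KRT5. For stretches of 50 bases the shares were 39.1% in KRT6A, 47.1% in KRT6B, 53.6% in KRT6C and 3.99% in KRT5. The 60 coding bases in 1 exon at which the 3 copies differ most were taken from the reference (GENCODE 29, GRCh38, exon 2, minus strand, coding positions 663 to 722 counted from the first base of the start codon), with capitals at the 9 positions where the copies differ. They lie at chr12:52491555-52491614 in KRT6A, chr12:52450439-52450498 in KRT6B and chr12:52472099-52472158 in KRT6C.
KRT6A: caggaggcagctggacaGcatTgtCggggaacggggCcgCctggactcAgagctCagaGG
KRT6B: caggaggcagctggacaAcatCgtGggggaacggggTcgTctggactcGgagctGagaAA
KRT6C: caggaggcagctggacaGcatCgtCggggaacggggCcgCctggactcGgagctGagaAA

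The type I genes are further apart, with short identical stretches. KRT14 matched KRT16 at 88.7% and KRT17 at 85.2% of aligned coding bases, KRT16 matched KRT17 at 80.9%, and KRT15 matched these 3 at 74.6% to 75.6%. Of the stretches of 100 bases, 5.95% of KRT14, 7.18% of KRT16, 0.322% of KRT17 and none of KRT15 occurred in another gene, among them KRT16 and KRT17 pseudogenes. The stretch of 60 bases at which KRT14, KRT16 and KRT17 differ least lies in exon 1 of each gene (GENCODE 29, GRCh38, minus strand) and has 1 differing position, in capitals. It lies at chr17:41586424-41586483 in KRT14, chr17:41612272-41612331 in KRT16 and chr17:41624192-41624251 in KRT17.
KRT14: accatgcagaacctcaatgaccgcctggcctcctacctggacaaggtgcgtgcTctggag
KRT16: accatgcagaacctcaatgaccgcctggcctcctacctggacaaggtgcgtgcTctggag
KRT17: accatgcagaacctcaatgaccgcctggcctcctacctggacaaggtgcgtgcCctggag

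HNRNPF stood at 18.7 and 16.6 FPKM in the knockdown samples, against 154 and 153 FPKM in the controls, and its log2 fold change of -3.05 had an adjusted p of 0.0251 (limma on log2(FPKM + 1), Benjamini-Hochberg adjustment over 13110 genes). Leaving out control 1 gave an adjusted p of 0.262 in limma, and leaving out control 2 gave 0.104, at log2 fold changes of -3.05 and -3.06. The call was also lost with the log2 fold change at -3.05 when low genes were not filtered (adjusted p = 0.259, limma) and when the intensity trend was left out (adjusted p = 0.0995, limma). The fragment totals are not listed, but steps in the lowest values of single-exon genes imply between 77400000 and 85000000 per sample. At that depth the lowest keratin value here corresponds to about 2186 fragments per kilobase, so differences between samples are far above counting error. Of the basal mammary markers those with the smallest p were MME, a membrane peptidase, at 3.50 and 3.49 FPKM in knockdown samples against 2.16 and 1.52 FPKM in controls, and CDH3, or P-cadherin, at 124 and 115 FPKM in knockdown samples against 93.5 and 97.4 FPKM in controls. Other basal markers went either way. Of the 11 basal markers, all tested, 7 had a log2 fold change above 0, and the median was 0.10. Of 11 luminal markers 6 reached a mean of 1 FPKM, with sums of 461 and 496 FPKM in knockdown samples against 487 and 519.5 FPKM in controls, and KRT19 stayed between 0.247 and 0.566 FPKM. Of the 6 tested luminal markers 4 had a log2 fold change above 0, and the median was 0.11. The luminal markers with the smallest p were KRT18, at 121 and 146 FPKM in knockdown samples against 172 and 177 FPKM in controls, and EPCAM, at 38.6 and 38.9 FPKM in knockdown samples against 56.4 and 45.9 FPKM in controls. MME, CDH3, KRT18 and EPCAM did not pass (limma, adjusted p 0.724 to 0.805), and their part in the keratin values was not tested. Of 10 fibroblast markers only COL1A1 and THY1 reached a mean of 1 FPKM, and the list summed to between 27.5 and 30.9 FPKM. Of the immune markers, CD68 lay between 11.2 and 12.1 FPKM and CD3E was listed at 0 in all 4 samples. The 4 endothelial markers in the table summed to at most 0.145 FPKM in a sample.

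The basal and stress keratins were among the most abundant transcripts of these cells. KRT5 had the 4th highest mean over the 4 samples of all gene symbols, KRT14 the 7th, KRT6A the 13th and KRT17 the 19th. The 8 genes together made up 3.10% and 3.65% of the summed FPKM in knockdown samples 1 and 2, against 2.21% and 3.58% in controls 1 and 2. KRT6B, KRT16 and KRT6C came next in abundance, and KRT15 had the lowest mean, 55.7 FPKM. The place of KRT15 depends on the transcript length used for its FPKM, which is not stated, and its reference transcript has 5237 bases against 1644 to 2531 for the other 7. Neighbours in this order did not always separate. KRT5 was above KRT14 in 3 of 4 samples and below it in knockdown 2. KRT6A was above KRT17 in all 4 samples, at 1.33 and 1.44 times its level in the knockdown samples and 1.49 and 1.66 times in the controls.

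Among the basal keratins, KRT5, the type II chain of the basal network, stood at 3676 and 3519 FPKM in the knockdown samples and at 3203 and 4878 FPKM in the controls. Its knockdown values lay between the control values, so the groups overlapped completely. The means were 3597 ± 111 and 4041 ± 1184 FPKM (SD, n = 2 each), a ratio of 0.890, and the log2 fold change of -0.14 had a 95% interval of -0.79 to 0.52 (limma, adjusted p = 0.999). KRT14, its type I partner, was at 3127 and 3984 FPKM in the knockdown samples against 2467 and 3682 FPKM in the controls. Knockdown 2 was the highest and control 1 the lowest, and knockdown 1 lay below control 2. The KRT14 log2 fold change was 0.23 with an interval of -0.47 to 0.92 (limma, adjusted p = 0.996). KRT15 was at 52.4 and 69.1 FPKM in the knockdown samples and at 28.2 and 73.3 FPKM in the controls. Here too both knockdown values lay between the controls, which were 2.59-fold apart, and the log2 fold change of 0.39 had an interval of -0.86 to 1.65 (limma, adjusted p = 0.998).

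Among the stress keratins the knockdown values stood nearer the top of the range. KRT6A was at 2371 and 3124 FPKM in the knockdown samples and at 1453 and 2619 FPKM in the controls. KRT6B was at 682 and 953 FPKM in the knockdown samples and at 356 and 734 FPKM in the controls. KRT6C was at 129 and 172 FPKM in the knockdown samples and at 74.97 and 131 FPKM in the controls. In all 3 genes knockdown 2 was the highest, control 1 was the lowest, and knockdown 1 lay 0.905 to 0.988 times as high as control 2, so the groups overlapped. The ratios of group means were 1.35 for KRT6A, 1.501 for KRT6B and 1.46 for KRT6C, and the log2 fold changes of 0.48, 0.66 and 0.58 had standard errors of 0.34, 0.39 and 0.31. None passed over all genes, with adjusted p-values of 0.918, 0.914 and 0.890 (limma).

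KRT16, the type I partner of the KRT6 chains, was at 314 and 467 FPKM in the knockdown samples and at 151 and 333 FPKM in the controls. Its order of samples was that of the KRT6 genes, and its range was the widest of the 8, with 3.09-fold between knockdown 2 and control 1. The means were 391 ± 108 FPKM in knockdown and 242 ± 129 FPKM in control samples (SD, n = 2 each), and the log2 fold change of 0.77 had an interval of -0.37 to 1.91 (limma, adjusted p = 0.902). KRT17, which partners type II keratins in basal and wounded epithelium, was at 1786 and 2169.5 FPKM in the knockdown samples and at 975 and 1573 FPKM in the controls. KRT17 was the 1 keratin of the 8 whose groups did not overlap, with knockdown 1 at 1.14 times control 2. The means were 1978 ± 271 FPKM in knockdown and 1274 ± 423 FPKM in control samples (SD, n = 2 each), a ratio of 1.55. Its log2 fold change of 0.67 (interval -0.06 to 1.39) missed the threshold after adjustment over the table (limma, adjusted p = 0.833).

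**Figure D1:**
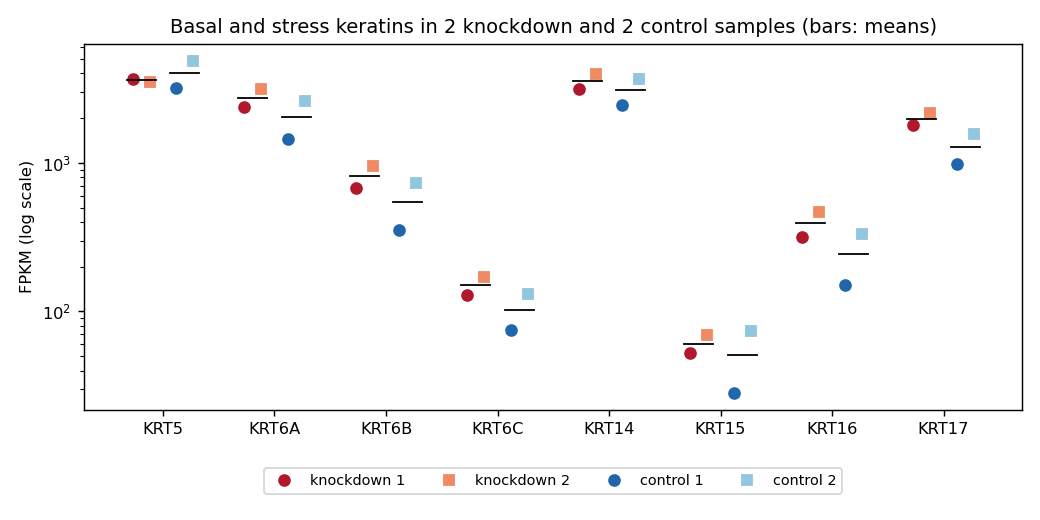
FPKM (log axis) of the 8 keratins in each of the 2 knockdown and 2 control samples, with points for samples and bars for group means. Control 1 is the lowest point for every gene, and KRT17 is the gene whose knockdown points both lie above both control points.

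Set against all genes, the counts were as follows. Of the 8 keratins 0 passed as higher and 0 as lower (limma, adjusted p under 0.05), against 0.0% and 0.00763% of the 13110 genes tested. The single gene called lower was HNRNPF. Before adjustment, 401 genes were higher and 396 lower at p under 0.05 in limma, and 0 of these were among the 8 keratins. The log2 fold change was above 0 for 7 of 8 keratins, against 50.2% of tested genes, with a median of 0.53 for the 8 and 0.0012 for all. Both knockdown samples lay above both controls for 1 of 8, against 17.5% of genes, and below both controls for 0 of 8, against 17.1%. A count of non-overlapping groups for the keratins therefore stood near the background.

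The size of these differences depended on which library was left out. Control 1 had the lowest of the 4 values for 8 of 8 keratins, against 17.8% of all tested genes and 26.9% of the 1250 tested genes that averaged 50 FPKM or more, where all 8 belong. Without control 1 the log2 fold changes were 0.06 for KRT6A, 0.14 for KRT6B, 0.19 for KRT6C, 0.20 for KRT16 and 0.32 for KRT17. KRT14 then stood at -0.06, KRT15 at -0.28 and KRT5 at -0.44, so that 5 of 8 were above 0, or 62.5% against 62.1% of all tested genes, and the median was 0.10, against 0.06 for all genes. Without control 2 all 8 were above 0, against 39.1% of all genes, from 0.17 for KRT5 to 1.34 for KRT16, with a median of 0.996 against -0.06 for all genes. Without knockdown 2 KRT14 was at 0.05, KRT15 at 0.20 and the median of the 8 at 0.33, and without knockdown 1 the median was 0.73, with 7 of 8 above 0 in each case. KRT17 had the largest of the 8 values without control 1. In bulk RNA, fewer cells with a keratin and less keratin RNA per cell cannot be told apart.

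**Figure D2:**
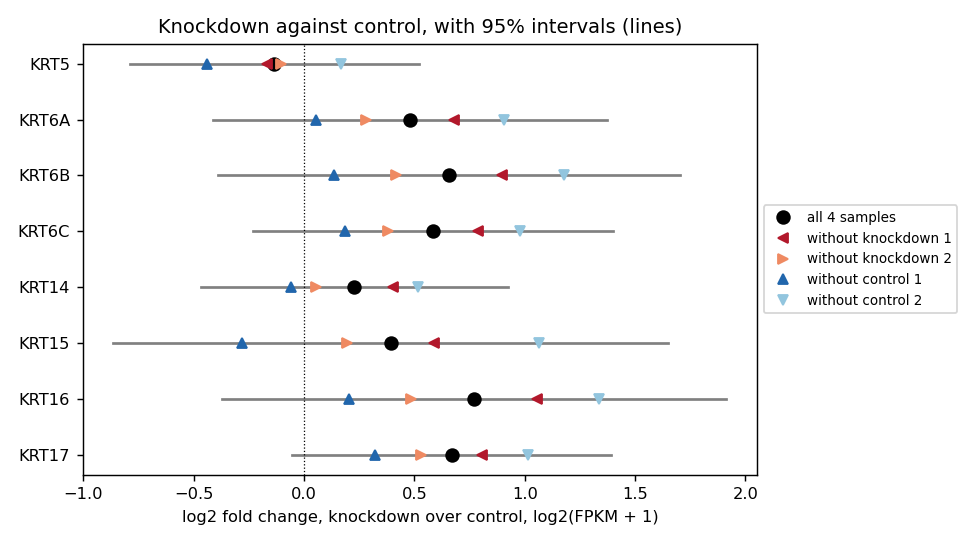
Log2 fold change (knockdown over control, log2(FPKM + 1) scale) of each keratin, with the 95% interval of the fit to all 4 samples as a line and the values without each sample as coloured points. Without control 1 the values of KRT5, KRT14 and KRT15 lie below 0 and those of the 5 stress keratins between 0.06 and 0.32.

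A second pattern followed the sample numbers. The sample numbered 2 was above the sample numbered 1 in both groups for 7 of 8 keratins, against 18.4% of all tested genes and 40.5% of those with at least 50 FPKM. The ratio of knockdown 2 to knockdown 1 lay between 1.21 (KRT17) and 1.49 (KRT16) for these 7, and that of control 2 to control 1 between 1.49 (KRT14) and 2.59 (KRT15). KRT5 was the exception, at 0.957 in the knockdown pair and 1.52 in the control pair. The ratio was larger in the control pair for all 8. Knockdown 2 was the highest of the 4 samples for 6 of 8 keratins, against 15.5% of genes and 24.0% of those with at least 50 FPKM. The labels do not say what the number stands for.

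**Figure D3:**
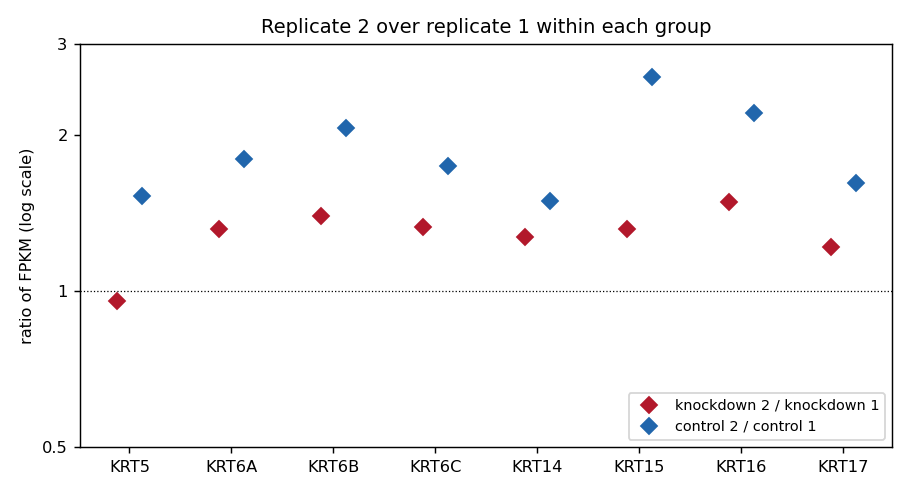
FPKM of replicate 2 divided by that of replicate 1 (log axis) within the knockdown group and within the control group, for each keratin. All ratios but the KRT5 ratio in knockdown lie above 1, and each control ratio exceeds the knockdown ratio of the same gene.

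Compared within a number, the knockdown sample was above its control in both pairs for 6 of 8 keratins, against 31.5% of all tested genes. KRT16 was at 2.08 and 1.40 times its same-numbered control, KRT6B at 1.92 and 1.30 times, and KRT17 at 1.83 and 1.38 times. KRT6C was at 1.72 and 1.31 times, KRT6A at 1.63 and 1.19 times, and KRT14 at 1.27 and 1.08 times. For KRT15 the ratios were 1.85 and 0.943, and for KRT5 they were 1.15 and 0.721. The 5 stress keratins thus had the higher ratios in the pair numbered 2, all between 1.19 and 1.40, and the 3 basal keratins the lower ones, between 0.721 and 1.08. The pair numbered 1 was not split this way, since the basal keratin KRT15, at 1.85, lay above KRT17, KRT6C and KRT6A.

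Most keratin levels overlapped between the groups, while most shares within the family did not. Each keratin was expressed as a share of the 4 genes of its type, a measure within 1 library that a common change of all keratins leaves as it is. KRT17 made up 33.8% and 32.4% of the type I sum in the knockdown samples, against 26.9% and 27.8% in the controls. KRT14 made up 59.2% and 59.6% in the knockdown samples and 68.1% and 65.0% in the controls. These 2 shares differed between the groups by more than the spread within each, and the groups did not overlap. KRT16 was at 5.95% and 6.98% in the knockdown samples against 4.17% and 5.88% in the controls, so its groups were separate by a narrow margin. In both groups the KRT16 share was higher in the sample numbered 2. KRT15 was at 0.991% and 1.03% in the knockdown samples against 0.780% and 1.29% in the controls, and its groups overlapped.

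In the type II sum, KRT5 made up 53.6% and 45.3% in the knockdown samples, against 63.0% and 58.3% in the controls. KRT6A made up 34.6% and 40.2% in the knockdown samples and 28.6% and 31.3% in the controls. KRT6B was at 9.94% and 12.3% in the knockdown samples against 6.99% and 8.77% in the controls, and KRT6C was at 1.88% and 2.21% in the knockdown samples against 1.47% and 1.56% in the controls. None of these 4 shares overlapped between the groups. All 4 also moved with the sample number, so these shares did not escape that pattern. From the sample numbered 1 to that numbered 2, KRT5 fell and the KRT6 shares rose in both groups. No background of such shares in other genes was computed, for the type I or the type II sum. For levels of single genes, both knockdown samples lay above both controls for 17.5% of tested genes and below them for 17.1%. Shares within a sum are tied to each other, and with 2 samples a group an exact permutation test cannot give a two-sided p under 0.333, so none was run.

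**Figure D4:**
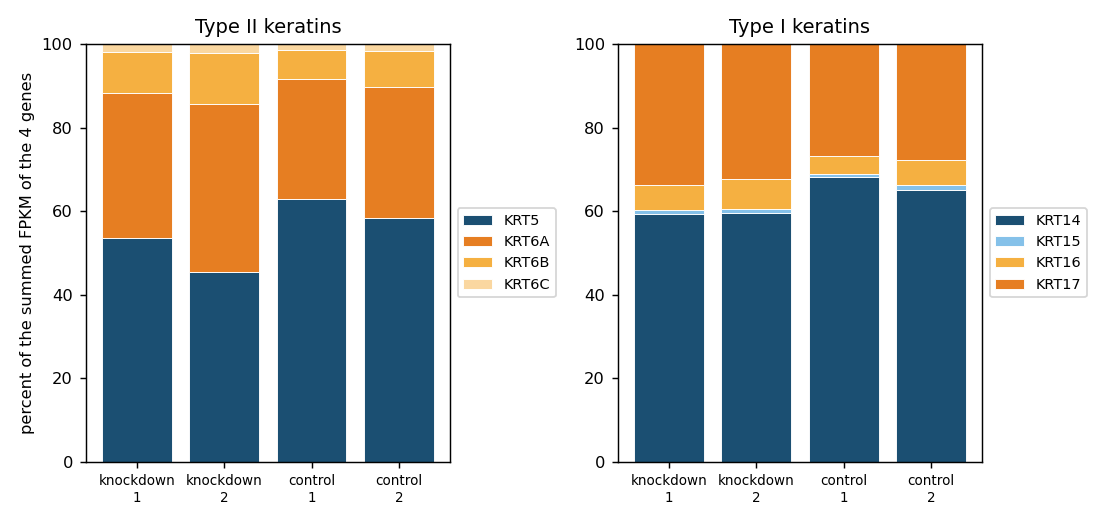
Share of each keratin in the summed FPKM of the 4 type II genes (left) and of the 4 type I genes (right), in percent, for each sample. The dark blue parts, KRT5 and KRT14, are smaller in both knockdown samples than in both controls, 53.6% and 45.3% against 63.0% and 58.3% for KRT5.

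Other ratios were formed after these values had been seen. The 5 stress keratins made up 43.5% and 47.6% of all 8 keratins in the knockdown samples, against 34.6% and 38.4% in the controls. The ratio of KRT17 to KRT14 was 0.571 and 0.545 in the knockdown samples and 0.395 and 0.427 in the controls. The ratio of KRT5 to KRT14, the partners of the basal network, was 1.18 and 0.883 in the knockdown samples against 1.30 and 1.32 in the controls. The type II sum over the type I sum was 1.30 and 1.16 in the knockdown samples and 1.40 and 1.48 in the controls. In sums, the stress keratins stood at 5282 and 6885 FPKM in the knockdown samples against 3010 and 5389 FPKM in the controls, so the sums overlapped although the shares did not. The basal keratins summed to 6856 and 7572 FPKM in the knockdown samples and to 5698 and 8633 FPKM in the controls, with group means 1.01-fold apart.

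Sums over near-identical genes depend little on how reads were divided among the copies. KRT6A, KRT6B and KRT6C together were at 3181 and 4249 FPKM in the knockdown samples and at 1884 and 3483 FPKM in the controls, a ratio of means of 1.38. KRT14, KRT16 and KRT17 are further apart, with short identical stretches. Together they were at 5228 and 6621 FPKM in the knockdown samples and at 3593 and 5588 FPKM in the controls. Their ratio of means was 1.29. Within the KRT6 genes the ratio of KRT6A to KRT6C varied little, at 18.4 and 18.2 in the knockdown samples and 19.4 and 20.1 in the controls. That of KRT6A to KRT6B varied more, at 3.48 and 3.28 in the knockdown samples and 4.09 and 3.57 in the controls. The 6 KRT16 pseudogenes in the table summed to 7.85 and 8.72 FPKM in the knockdown samples and to 7.58 and 5.96 FPKM in the controls, and the 8 KRT17 pseudogenes to at most 0.362 FPKM in any sample. These levels are small beside KRT16 itself, at 314 FPKM or more in knockdown and at 151 and 333 FPKM in the controls. FPKM of a pseudogene can, however, hold reads of its parent gene.

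The study concerns RNA G-quadruplexes and hnRNP F, which binds runs of G. Runs of G were about as frequent in most keratin transcripts as in the median transcript. Counting GGG on the transcript strand, overlaps included, 7 of the 8 reference transcripts had 16.8 to 18.2 per kilobase, against a median of 16.9 over 11424 tested genes with a coding transcript (quartiles 11.2 and 24.8). KRT15 had 32.7 per kilobase, in a reference transcript of 5237 bases of which 1368 are coding. It was also the only 1 of the 8 with a match to the G-quadruplex pattern, 4 runs of at least 3 G with 1 to 7 bases between neighbours on the transcript strand, which 26.4% of those genes had. GC content lay between 55.8% and 61.8% for the 8, against a median of 49.1%. Only spliced transcripts were searched, and a match in letters is no binding site.

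Of 24 other keratins listed, 9 were tested, with 0 higher and 0 lower at the adjusted threshold (limma), 8 of 9 above 0 and a median log2 fold change of 0.33. KRT7, a type II keratin of simple and glandular epithelia, was at 740 and 699 FPKM in the knockdown samples against 713 and 709 FPKM in the controls. KRT8, the type II chain of simple epithelia, was at 290 and 303 FPKM in the knockdown samples and at 248 and 289 FPKM in the controls. The highest KRT7 value was 1.06 times the lowest. KRT13, a type I keratin of internal stratified epithelia, was at 6.98 and 5.90 FPKM in the knockdown samples and at 1.90 and 3.49 FPKM in the controls. KRT10, the type I keratin of differentiating epidermis, was at 12.2 and 15.2 FPKM in the knockdown samples and at 8.70 and 8.66 FPKM in the controls. Both KRT13 and KRT10, named for their small p, had groups that did not overlap, and neither passed (limma, adjusted p = 0.683 for each). Of the 9 tested, 4 had both knockdown samples above both controls and 1 had both below, against 17.5% and 17.1% of all genes.

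The epidermal alarmin genes, which inflamed or wounded epidermis makes along with the stress keratins, shared with the 8 keratins that control 1 was low. Of 15 listed, 12 were tested, with 0 higher and 0 lower at the adjusted threshold (limma). All 12 had a log2 fold change above 0, against 50.2% of tested genes, with a median of 0.64. Control 1 was the lowest sample for all 12, against 17.8% of tested genes. The order of the other 3 samples differed among these genes. Knockdown 2 was the highest for 10 of 12, against 15.5% of tested genes. In 5 of 12 both knockdown samples lay above both controls, against 17.5% of tested genes. Without control 1, 8 of 12 were above 0, or 66.7% against 62.1% of all tested genes. The median was then 0.09, against 0.06 for all genes. The list was chosen with earlier results of these data known, so these counts are no independent check. SPRR1B, a precursor of the cornified envelope, was at 455 and 569 FPKM in the knockdown samples and at 205 and 473 FPKM in the controls. S100A9, a subunit of calprotectin, was at 168 and 252 FPKM in the knockdown samples and at 87.5 and 239.9 FPKM in the controls. SPRR1B and S100A9 are named as nearest genes to a keratin, so their likeness to it was selected. The 2 genes with the smallest p were SERPINB3, a serpin of squamous epithelium (5.22 and 7.79 FPKM in knockdown, 2.07 and 4.19 FPKM in control), and SPRR2A, another envelope precursor (10.2 and 11.3 FPKM in knockdown, 5.62 and 8.51 FPKM in control). Neither passed (limma, adjusted p = 0.820 and 0.823).

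**Figure D5:**
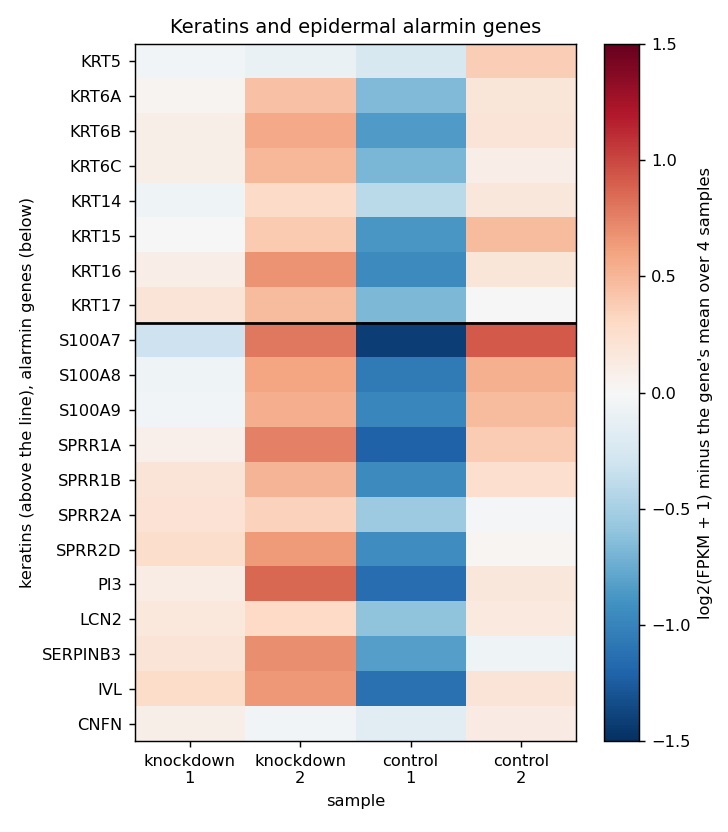
Log2(FPKM + 1) of each gene minus its mean over the 4 samples, for the 8 keratins (above the line) and the 12 tested alarmin genes (below it), with knockdown samples left of controls. The column of control 1 is blue, below the mean, for all 20 genes.

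Genes closest to each keratin over the 4 samples were found by the distance between log2(FPKM + 1) profiles centred on their means, among 6137 coding genes outside the 8 with at least 10 FPKM. SPRR1B was the nearest to KRT6B (distance 0.169) and to KRT16 (0.193), with FAM213A (0.215) and SPRR2D (0.234) as the next. TUBA1B, an alpha tubulin, and A2ML1, a protease inhibitor of keratinocytes, were nearest to KRT6A at 0.0950 and 0.103. KRT6C had FAM213A (0.122) and CTSV, a cysteine protease of squamous epithelium (0.171), and KRT17 had ANGPTL4 (0.141) and FAM213A (0.158). S100A9 (0.186) and ODC1, the ornithine decarboxylase of polyamine synthesis (0.219), were nearest to KRT15. The ephrin genes EFNB1 (0.0553) and EFNA3 (0.0707) were nearest to KRT14, and PLEKHG3 (0.0870) and PCBP4 (0.0960) to KRT5.

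The same distances order the keratins among themselves. KRT6B and KRT16 were each other's nearest gene, at 0.143, ahead of all other candidates. KRT6A was the nearest gene to KRT6C, at 0.111, and KRT6C was the second nearest to KRT17. By rank, KRT14 and KRT5 stood apart. The closest other member was at rank 255 for KRT14 (KRT6A, distance 0.319) and at rank 1847 for KRT5 (KRT14, 0.467). KRT15 had its closest member, KRT6B, at rank 9, though at 0.347 it was farther away than KRT6A was from KRT14. With 4 samples such profiles rest on few values, and near copies can share reads.

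Known regulators of keratin genes were mixed. Of 20 listed 18 were tested, with 0 higher and 0 lower at the adjusted threshold (limma), 7 of 18 above 0 and a median of -0.02. NFE2L2, which encodes the antioxidant response factor NRF2, was at 11.3 and 10.03 FPKM in the knockdown samples and at 23.9 and 19.7 FPKM in the controls, a ratio of means of 0.490 with no overlap. It had the smallest p of the list and did not pass (limma, adjusted p = 0.479). TP63, which encodes the basal cell master factor p63, was at 30.9 and 28.7 FPKM in the knockdown samples against 19.5 and 26.5 FPKM in the controls (limma, adjusted p = 0.864). Control 1 was again the lowest sample for TP63, and for 8 of the 18 in all, against 17.8% of tested genes. Of the 18, 4 had both knockdown samples above both controls and 2 had both below, against 17.5% and 17.1% of all genes.

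Signals that induce stress keratins gave 8 of 12 tested members above 0 and a median of 0.18, with 0 higher and 0 lower at the adjusted threshold (limma). IL36G, an epithelial cytokine of the IL-1 family, was at 5.995 and 6.90 FPKM in the knockdown samples and at 2.25 and 3.70 FPKM in the controls (limma, adjusted p = 0.683). TNF was at 5.01 and 5.85 FPKM in the knockdown samples against 8.30 and 7.89 FPKM in the controls (limma, adjusted p = 0.762). Both were named for their small p, and both had groups that did not overlap, in opposite directions. Of the 12 tested, 6 had both knockdown samples above both controls and 1 had both below, against 17.5% and 17.1% of all genes. In 6 of the 12 control 1 was the lowest sample, against 17.8% of all tested genes.

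Genes that anchor or handle keratin filaments gave 12 of 15 tested members above 0 and a median of 0.10, again with 0 higher and 0 lower at the adjusted threshold (limma). DSP, which encodes desmoplakin, the link of keratin filaments to desmosomes, was at 190 and 181 FPKM in the knockdown samples and at 136 and 143 FPKM in the controls (limma, adjusted p = 0.608). EVPL, which encodes envoplakin of the cornified envelope, was at 4.24 and 2.98 FPKM in the knockdown samples and at 1.51 and 1.81 FPKM in the controls (limma, adjusted p = 0.720). Unlike the 8 keratins, DSP was close between the 2 controls, but control 1 was the lowest sample for DSP and for EVPL. The same held for 10 of the 15 tested, these included, against 17.8% of all tested genes. DSP and EVPL, named for their small p, had groups that did not overlap. Of the 15, 7 had both knockdown samples above both controls and 1 had both below, against 17.5% and 17.1% of all genes.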

How the data were processed

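The authors deposited 1 table of FPKM per gene and sample. STAR 2.5.3a, Cuffdiff 2.2.1 and GRCh37 are named, per the submitters' processing notes, without roles, and which tool gave the FPKM, and with which annotation, is not given in the sources used here. Trizol extraction and stranded paired-end polyA libraries are described, per the labels' protocols. Samples were grouped by their titles.

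The 13110 genes averaging 1 FPKM or more were compared as log2(FPKM + 1) with limma 3.58.1 in R 4.3.3 (empirical Bayes with an intensity trend, no covariate, two-sided, Benjamini-Hochberg adjustment over all genes at 0.05). The fit was tested on simulated data. Ratios, sums and shares use FPKM. A sum is described without a test. Whole reads could not be recovered, since 44.6% to 46.7% of low values were whole multiples of the lowest step within 0.02. The implied depths are estimates. Sequences came from GENCODE 29 (1 principal coding transcript a gene), compared with Biopython 1.88, and figures from matplotlib 3.10.9. The keratins, gene lists and marker lists were chosen with earlier results of these data known. Some marker genes are not reported here, and KRT19 is named for its low level. Named from each gene list and from the epithelial marker lists were the 2 tested genes with the smallest p, since none passed, and from the other keratins also the 2 most abundant. SPRR1B and S100A9 are named as nearest genes. The alternatives were other pseudocounts, filters and scalings, no trend, the replicate block and leaving out each sample.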

Additional observations from a re-analysis of the deposited data

How the results depend on the processing

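Of 13 alternatives, 5 leave each keratin fold change as it is by construction. Under the other 8, 61 of 64 keratin log2 fold changes kept their direction. None passed the adjusted threshold under any of the 13 (adjusted p 0.317 to 1). The 3 that turned did so when a control was left out: KRT5 ranged from -0.44 to 0.17 over the 4 fits without 1 sample, KRT14 from -0.061 to 0.52 and KRT15 from -0.28 to 1.06. The summed KRT6 genes ranged from 0.093 to 0.98 and the type II sum from -0.19 to 0.52, on a log2 scale. The number of genes called was 0 with no filter, without the trend and with the replicate block, and 0 to 2 without 1 sample, against 1 (HNRNPF). Where 1 sample was left out of a group, the lone sample was assumed to vary like the others. The number of keratins above 0 was 5 to 8 and that of alarmin genes 8 to 12 without 1 sample, an alternative chosen after seeing the data.

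Deviations of same-numbered samples from their group means had a correlation of 0.39 across genes. With 2 pairs and no label for the number, this does not establish pairing. With the replicate block 1790 genes had an unadjusted p under 0.05, against 797 without it, and the keratins had adjusted p-values between 0.317 (KRT17) and 0.774 (KRT5) in limma. For HNRNPF the log2 fold change stayed at -3.05 while the adjusted p was 0.259 with no filter, 0.0995 without the trend and 0.164 with the block. Depth did not limit these genes.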
